A study of Mus musculus with 8 samples.

Results

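Runx2, Sp7, Dlx3, Dlx5, Dlx6, Msx1, Msx2 and Twist1 are transcription factors that set osteoblast fate in the skull. They were picked by gene symbol as known factors of this lineage, with earlier results of these data known, and they are 8 of the 24421 genes in the files. RNA was measured by poly-A RNA sequencing in cultures of calvarial osteoblastic cells, bone-forming precursors digested out of the skull vault of newborn (0 to 3 days old) C57BL/6 mice. Cells of WT mice and of Def6-/- mice, which lack the guanine nucleotide exchange factor Def6, were taken at day 0 and at day 12 of culture in osteogenic medium with ascorbic acid and β-glycerophosphate. Each of the 4 groups (WT day 0, WT day 12, Def6-/- day 0 and Def6-/- day 12) had 2 libraries. The sources used here state that replicates were biological, but not how many animals gave the cells of a library, and the p-values given here measure only the spread between these libraries.

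Osteoblasts arise from mesenchymal and neural crest cells once Runx2 is active, and Runx2 binds the promoters of many bone matrix genes. Sp7, also called osterix, is a zinc finger factor needed after Runx2, and neither gene can be lost without loss of bone. The homeodomain factors Dlx3, Dlx5 and Dlx6 and the homeodomain factors Msx1 and Msx2 read similar DNA sites with largely opposite effects: Dlx proteins act mostly as activators of osteoblast genes, and Msx proteins mostly as repressors that hold progenitors in a dividing state. Twist1 is a basic helix-loop-helix factor that binds Runx2 and blocks it in progenitors of the sutures. In people, heterozygous loss of RUNX2 causes cleidocranial dysplasia, loss of TWIST1 closes the sutures early, and changes in MSX2 either close the sutures early or leave holes in the parietal bones. Changes in DLX3 cause tricho-dento-osseous syndrome, in which bone density is raised.

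All positions are in mm10 (GRCm38), from the GENCODE M21 annotation. Runx2 lies on chromosome 17 from 44495987 to 44814797, on the minus strand and 16.3 Mb from Def6 on the same chromosome. Sp7 lies on chromosome 15 from 102356606 to 102367182, and Dlx3 on chromosome 11 from 95120119 to 95125296. Dlx6 (chromosome 6, 6863334 to 6868568) and Dlx5 (6877805 to 6882085) are neighbors with 9.24 kb between them, on opposite strands. Msx1 lies on chromosome 5 from 37820485 to 37824583, Msx2 on chromosome 13 from 53466884 to 53473074, and Twist1 on chromosome 12 from 33957671 to 33959829. Exons of Dlx6 share 104 bases with the opposite-strand gene Dlx6os2, which had between 0 and 6 reads per library. Because the strand setting of the counting is not given in the sources used here, reads of Dlx6 and Dlx6os2 could not be told apart in that stretch. Exons of Runx2 share 519 bases with Runx2os1, which is not analysed here.

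The RefSeq promoter table (GRCm38.p6) held 4 of the 8 genes, and these are shown because they pair the gene that fell most during differentiation (Msx2) with its paralog (Msx1) and Runx2 with its inhibitor Twist1. The search covered the 250 bases before each start on both strands for a RUNX site (TGTGGT or ACCACA), a homeodomain site (TAATTA), a GC box of the Sp family (GGGCGG or CCGCCC) and an E-box (CANNTG), which is the site of Twist1. Capitals mark the RUNX, homeodomain and GC box matches in the whole windows of Msx1 and Twist1, and the homeodomain or RUNX match in the 30-base stretches of Msx2 and Runx2, whose windows lie wholly or in part (250 and 170 of the 250 bases) in longer first exons of the GENCODE annotation. The stretches are chr5:37824586-37824835 (minus), chr12:33957421-33957670 (plus), chr13:53472950-53472979 (minus) and chr17:44814690-44814719 (minus), in this order, 5′ to 3′.
Msx1: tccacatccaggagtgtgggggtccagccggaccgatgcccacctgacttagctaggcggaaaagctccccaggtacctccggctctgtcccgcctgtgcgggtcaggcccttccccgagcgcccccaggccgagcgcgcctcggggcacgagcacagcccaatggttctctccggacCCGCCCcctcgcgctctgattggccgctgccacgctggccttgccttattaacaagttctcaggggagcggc
Twist1: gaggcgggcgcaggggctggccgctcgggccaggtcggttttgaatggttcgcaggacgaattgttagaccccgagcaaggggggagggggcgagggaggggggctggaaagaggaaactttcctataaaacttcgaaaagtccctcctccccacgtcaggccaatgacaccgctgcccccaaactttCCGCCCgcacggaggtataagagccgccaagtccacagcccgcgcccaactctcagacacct
Msx2: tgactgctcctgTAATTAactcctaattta
Runx2: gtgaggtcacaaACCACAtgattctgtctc
The TAATTA of Msx2 began at position -187 from its start, and 4.84% of the 32851 promoters in the table hold this motif. The ACCACA of Runx2 began at position -80, and 14% of promoters hold a RUNX site. GC boxes were found in Msx1, Msx2 and Twist1 and in 32.7% of all promoters, and E-boxes in Msx1, Msx2 and Runx2 and in 66.2%. These matches describe letters in these windows and say nothing of binding.

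Libraries had between 2414856 and 3482837 reads on genes, which were 28.8% to 35.3% of all reads. Levels are given as normalized CPM, which are reads per 1000000 reads on genes after correction with TMM factors, and fold changes were fitted to log2(CPM + 1), where the added 1 shrinks the fold of a gene with few reads. Def6 itself had between 112 and 186 reads in the 4 WT libraries and between 0 and 2 in the 4 Def6-/- libraries. The WT day 0 replicates differed most: 19.3% of genes differed by more than 2-fold between them, against 2.20% to 3.73% in the other groups. This spread does not show which of the 2 libraries is unusual. WT day 0 replicate 1 stood apart in its reads not uniquely aligned, with 34.9% against 21.4% to 26.6% in the other libraries. Markers of osteoblasts were present in each library, with a summed level of 28757 to 44691 normalized CPM at day 0 and 81006 to 113362 at day 12, and Col1a1, which encodes a chain of type I collagen, led them. The day 0 sum came almost wholly from Col1a1, Col1a2 and Spp1, each with at least 7155 reads per library. No other marker in the sum had more than 110 reads in a day 0 library. At day 0, however, Bglap, Bglap2 and Ifitm5, which mark mature osteoblasts, had no read in any library.

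Per kb of exon, Twist1 and the 2 Msx genes had the highest levels at day 0, and by day 12 Msx2 had left the first place. Compared per kb of exon, the order at day 0 in WT cells was Msx2 (127 ± 29.96 normalized CPM per kb, SD, n = 2), Twist1 (80.2 ± 2.29), Msx1 (40.1 ± 2), Sp7 (18.3 ± 7.96), Dlx5 (14.9 ± 1.54), Runx2 (11.2 ± 5.76), Dlx6 (2.63 ± 0.221) and Dlx3 (0.0752 ± 0.106). In this order the libraries of Sp7 overlapped with those of Dlx5, and those of Dlx5 with those of Runx2, while other neighbors did not overlap. At day 12 Twist1 stood first in both genotypes, with 78.7 ± 4.71 in WT cells and 83.0 ± 7.33 in Def6-/- cells per kb. Msx2 stood at rank 3 in WT cells at day 12 (21.5 ± 0.358 per kb), where its libraries overlapped with those of Sp7, and at rank 6 in Def6-/- cells (14.8 ± 2.59 per kb), below Sp7, Msx1, Dlx5 and Runx2 and without overlap with Runx2. In Def6-/- cells at day 12 Sp7 (29.5 ± 2.30 per kb) and Msx1 (28.4 ± 4.08 per kb) overlapped at ranks 2 and 3.

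**Figure D1:**
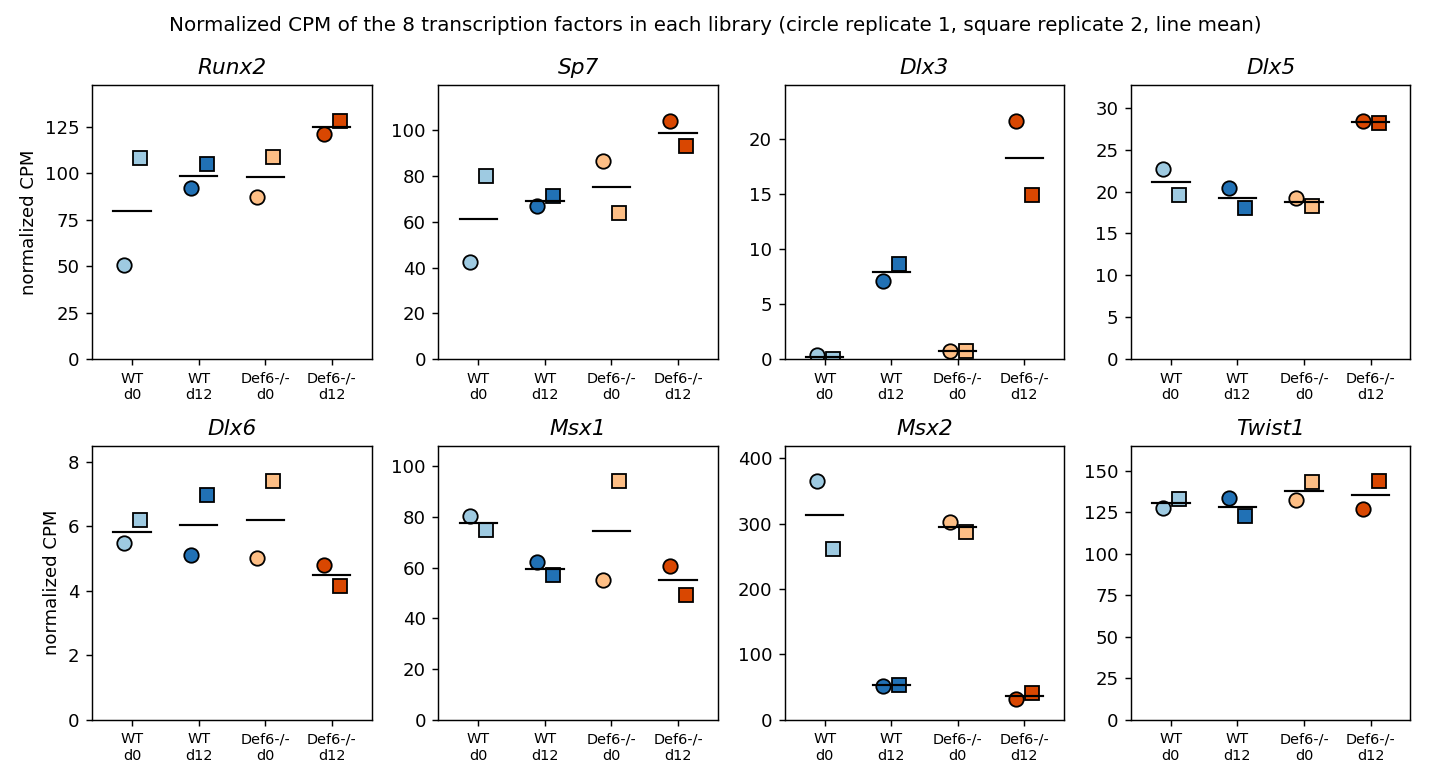
Normalized CPM (vertical axes, from 0, with a scale of their own for each gene) of the 8 transcription factors in the WT and Def6-/- libraries at day 0 (d0) and day 12 (d12). Circles are replicate 1, squares replicate 2 and lines the mean of the 2 libraries; Dlx3 is near 0 at day 0 and highest in Def6-/- cells at day 12, Msx2 is above 260 in all day 0 libraries and below 54 in all day 12 libraries, and Twist1 lies between 123 and 144 in all 8.

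The first comparison asked how the factors changed while the cells differentiated. Dlx3 rose and Msx2 fell from day 0 to day 12 in both genotypes, and no other factor passed an adjusted p of 0.05 in either. These were 2 of 8 factors (25%) in each genotype, against 18.7% of 12348 genes tested in WT cells (12.1% higher and 6.61% lower at day 12) and 17.2% in Def6-/- cells (11% higher and 6.2% lower). All 8 passed the filter on low values, Dlx3 only through the day 12 groups, so that its difference between the days is in part fixed by the filter.

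Dlx3 was almost silent at day 0. WT libraries at day 0 had 1 read and 0 reads on Dlx3 (0.392 and 0 normalized CPM), and at day 12 they had 25 and 21 reads (7.11 and 8.61 normalized CPM). Def6-/- libraries had 2 reads each at day 0 (0.771 and 0.704 normalized CPM) and 54 and 36 at day 12 (21.7 and 14.9 normalized CPM). All 4 libraries at day 12 thus lay above all 4 at day 0. From the summed reads, the ratio of day 12 to day 0 was 40.9 in WT cells (95% counting interval 6.99 to 1652, 46 against 1 read) and 24.9 in Def6-/- cells (9.41 to 93.5, 90 against 4 reads). The fitted log2 fold change was 2.90 in WT cells (SE 0.35, limma adjusted p = 0.000963) and 3.45 in Def6-/- cells (SE 0.35, adjusted p = 0.000447). With so few reads at day 0 this value depends on the pseudocount, and it lay between 1.73 and 5.41 in WT cells over the other settings. Dlx3 is known as an activator of osteoblast differentiation that binds the osteocalcin promoter.

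Msx2 was the most abundant of the 8 at day 0 and dropped several-fold. WT libraries had 364 and 261 normalized CPM of Msx2 at day 0 (929 and 716 reads) and 52.1 and 53.3 at day 12 (183 and 130 reads). In Def6-/- libraries the Msx2 level was 302 and 287 normalized CPM at day 0 (785 and 816 reads) and 31.7 and 40.7 at day 12 (79 and 98 reads). For this repressor the highest level at day 12 (53.3) was far below the lowest at day 0 (261). The log2 fold change of Msx2 was -2.53 in WT cells (SE 0.21, 5.76-fold lower, limma adjusted p = 0.000157) and -3.00 in Def6-/- cells (SE 0.21, 8.02-fold lower, adjusted p = 7.75e-05).

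Its paralog Msx1 moved far less. Msx1 was at 80.4 and 75.0 normalized CPM in WT cells at day 0 and at 62.3 and 57.0 at day 12, without overlap. In Def6-/- cells Msx1 was at 55.1 and 94.0 at day 0 and 60.6 and 49.4 at day 12, where the libraries overlapped. The log2 fold change of Msx1 was -0.38 in WT cells (95% interval -0.97 to 0.21) and -0.39 in Def6-/- cells (-0.98 to 0.20), and neither passed the test.

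Runx2 and Sp7, the core pair of the lineage, were already well expressed at day 0. Runx2 was at 50.6 and 108 normalized CPM in WT cells at day 0 and 91.9 and 105 at day 12. In Def6-/- cells Runx2 was at 87.1 and 109 at day 0 and 121 and 128 at day 12. The low value belongs to WT day 0 replicate 1, far below replicate 2. The log2 fold change of Runx2 between the days was 0.40 in WT cells (95% interval -0.32 to 1.12) and 0.35 in Def6-/- cells (-0.37 to 1.08). Without WT day 0 replicate 1 the WT value was -0.09, and without WT day 0 replicate 2 it was 0.94 with an adjusted p of 0.00105 (limma, with 46.2% of all genes called), so that this library decides the sign.

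Sp7 showed the same split in WT cells at day 0, with 42.4 and 80.0 normalized CPM, and was at 66.9 and 71.4 at day 12. In Def6-/- cells Sp7 was at 86.7 and 63.8 normalized CPM before differentiation and at 104 and 93.4 at day 12, so that both day 12 libraries lay above both day 0 libraries. The log2 fold change of Sp7 was 0.24 in WT cells (95% interval -0.43 to 0.91) and 0.40 in Def6-/- cells (-0.27 to 1.07). In WT cells it was -0.16 without WT day 0 replicate 1 and 0.69 without replicate 2 (limma adjusted p = 0.0130). When WT day 0 replicate 1 was left out, Runx2, Sp7 and Dlx5 also passed the test in Def6-/- cells, with log2 fold changes of 0.42, 0.47 and 0.63; 34.8% of all genes were then called.

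Dlx5 and Dlx6 did not pass the test between the days in either genotype. Dlx5 was at 22.8 and 19.6 normalized CPM in WT cells at day 0 and 20.5 and 18.05 at day 12. In Def6-/- cells Dlx5 was at 19.3 and 18.3 at day 0 and 28.5 and 28.2 at day 12, without overlap. The log2 fold change of Dlx5 was -0.13 in WT cells (95% interval -0.63 to 0.37) and 0.57 in Def6-/- cells (0.07 to 1.07, limma adjusted p = 0.114). Without WT day 0 replicate 2 it also passed in Def6-/- cells (limma adjusted p = 0.0401, with 36.1% of all genes called). Dlx6, with only 10 to 21 reads per library, stayed between 4.15 and 7.40 normalized CPM in all 8 libraries, and its log2 fold changes were 0.03 in WT cells and -0.38 in Def6-/- cells.

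Twist1 was the steadiest of the 8. WT libraries had 128 and 133 normalized CPM of Twist1 at day 0 and 133 and 123 at day 12, and in Def6-/- libraries it was at 132 and 143 at day 0 and 127 and 144 at day 12. The log2 fold change was -0.03 in both genotypes, with a 95% interval of -0.40 to 0.35 in each, so that a 2-fold change in either direction lay outside the interval.

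**Figure D2:**
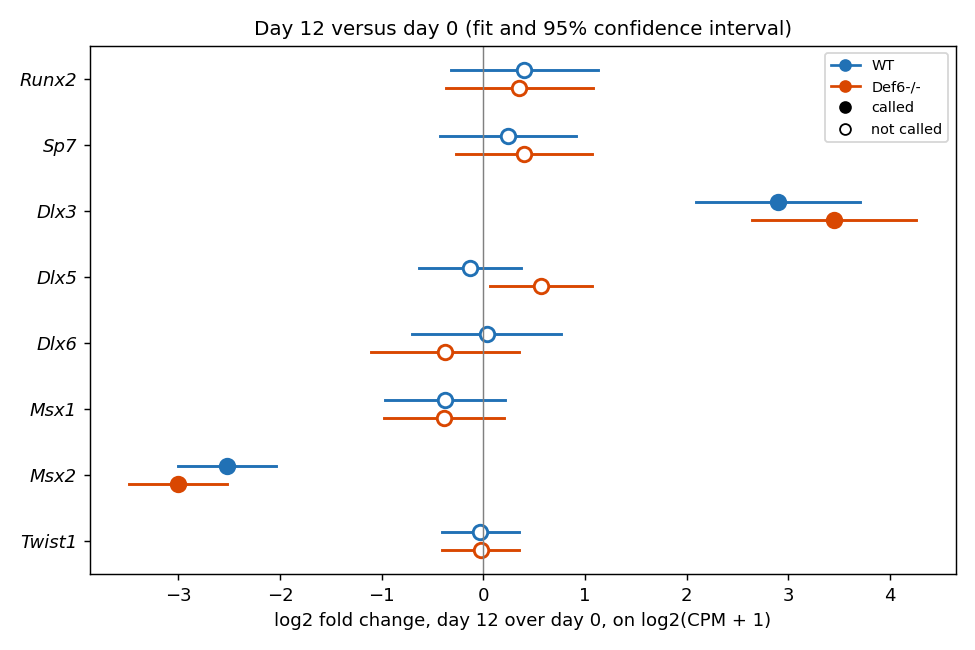
Log2 fold change of day 12 over day 0 on the log2(CPM + 1) scale (horizontal axis) for each factor in WT (blue) and Def6-/- cells (orange), with lines for the 95% confidence interval of the limma fit and filled points for an adjusted p under 0.05. Dlx3 lies right of 0 and Msx2 left of 0 in both genotypes, and all others are open points.

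By libraries that do not overlap, 3 of 8 factors separated the days in WT cells (Dlx3 above, Msx1 and Msx2 below), against 56.3% of all genes, and 6 of 8 did in Def6-/- cells (Runx2, Sp7, Dlx3 and Dlx5 above, Dlx6 and Msx2 below), against 68.8%. Both shares are near or below that of all genes.

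The shares of reads within the homeobox families are given as a description. Msx2 gave 81.9% and 77.7% of the reads of the 2 Msx genes in WT libraries at day 0 (Wilson 95% intervals 79.6% to 84.1% and 74.9% to 80.2%) and 45.5% and 48.3% at day 12 (40.7% to 50.4% and 42.4% to 54.3%). In Def6-/- libraries the share of Msx2 was 84.6% and 75.3% at day 0, and 34.3% and 45.2% at day 12. The log2 ratio of Msx2 to Msx1 was lower at day 12 by 2.38 over the 4 libraries of each day, with -0.38 ± 0.36 against 2 ± 0.38 (SD), and the libraries of the days did not overlap. The exact two-sided permutation test gave p = 0.0286, the smallest that 4 against 4 libraries allow, and 0.114 after Benjamini-Hochberg adjustment over 4 ratios. This test permuted the libraries without regard to genotype. Over the other settings, which include permutation within each genotype, the adjusted permutation p was as high as 0.222. Permutation within each genotype allows fewer arrangements, so that its smallest possible p is larger.

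Dlx3 gave 1.37% of the reads of Dlx3, Dlx5 and Dlx6 in WT day 0 replicate 1 and 0 of 71 reads in replicate 2, which allows a share of up to 4.23% by a limit of 3 reads and 5.13% by the Wilson 95% interval. At day 12 its share was 21.7% and 25.6% in WT cells and 39.4% and 31.6% in Def6-/- cells, after 3.08% and 2.67% at day 0. At day 12 the Wilson 95% intervals were 15.2% to 30.1% and 17.4% to 36.0% in the WT libraries and 31.6% to 47.8% and 23.8% to 40.6% in the Def6-/- libraries. That of Def6-/- replicate 1 lay above that of WT replicate 1, and the other pairs of a WT and a Def6-/- library overlapped. All intervals cover counting error only. The share of Dlx6 among reads of the pair Dlx5 and Dlx6 was 14.5% and 12.8% in Def6-/- cells at day 12 and between 19.4% and 28.8% in the other 6 libraries.

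**Figure D3:**
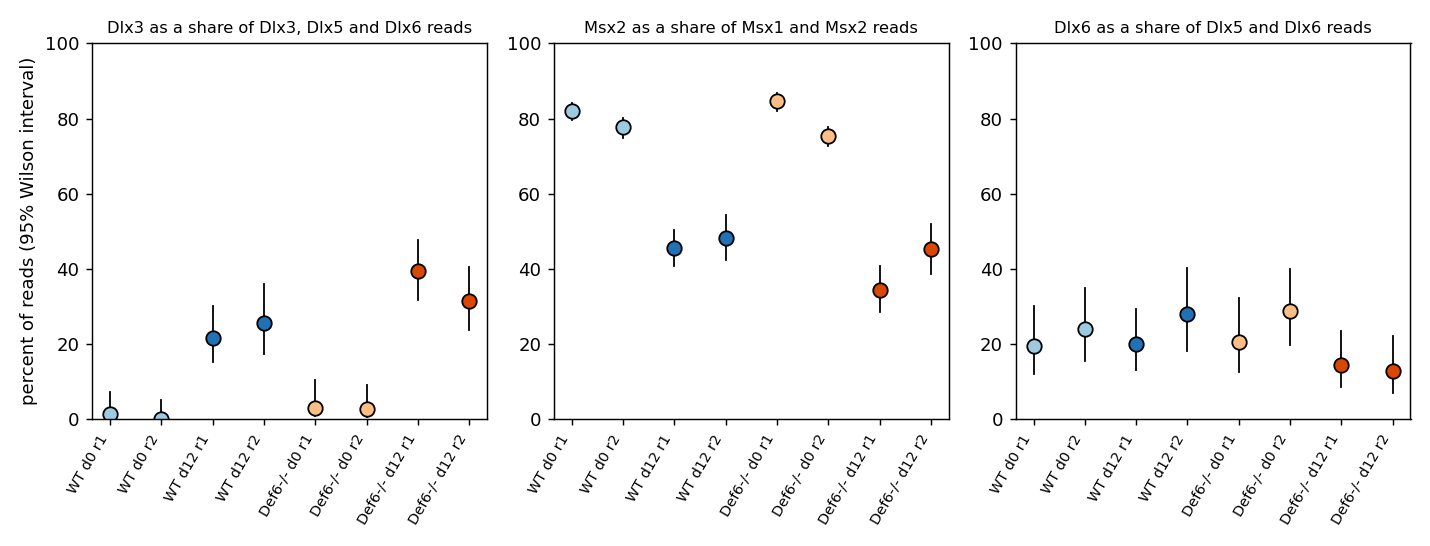
Percent of reads (vertical axis, 0 to 100) that Dlx3 took of the 3 Dlx genes (left), Msx2 of the 2 Msx genes (middle) and Dlx6 of Dlx5 and Dlx6 (right), with 1 point per library (r1 and r2 are the replicates) and Wilson 95% intervals as bars. The Dlx3 share is at most 3.08% at day 0 and at least 21.7% at day 12, and the Msx2 share is at least 75.3% at day 0 and at most 48.3% at day 12.

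The log2 ratio of Sp7 to Runx2 differed between the days by -0.05 (exact permutation p = 0.8, two-sided). That of Dlx6 to Dlx5 differed by -0.39 (exact permutation p = 0.286), and that of Twist1 to Runx2 by -0.40 (exact permutation p = 0.143), and the libraries of the days overlapped for all 3 ratios.

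The second comparison asked what loss of Def6 changed. At day 0 no factor differed between the genotypes at an unadjusted limma p under 0.05 and more than 1.2-fold, the rule of the study, which 2.34% of genes passed. By the adjusted p, and by the unadjusted rule in edgeR and in DESeq2, the count was also 0 of 8. The largest differences were 0.56 for Dlx3 (4 against 1 summed reads), 0.39 for Runx2 (95% interval -0.33 to 1.11) and 0.35 for Sp7 (-0.32 to 1.01) on the log2 scale, and the last 2 were -0.16 and -0.11 without WT day 0 replicate 1. Without WT day 0 replicate 2 they were 0.93 and 0.80, and both passed the rule, as did 37.1% of all genes. Libraries did not overlap for 2 of 8 factors, Dlx3 above and Dlx5 below in Def6-/- cells, against 22.8% of all genes.

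At day 12, the same rule called Dlx3 and Dlx5 higher and Msx2 lower in the absence of Def6. These are 3 of 8 factors (37.5%), against 1.39% of all genes (0.753% higher and 0.64% lower). Because the 8 were picked with results of these data known, this share is no independent evidence. None of the 3 had an adjusted p under 0.05, which 0.0081% of genes (1 gene, Def6) had, and the adjusted p of all 8 was 1. By the unadjusted rule edgeR called Dlx3 and Dlx5 (1.47% of genes called), and DESeq2 called only Dlx3 (0.688%). The levels of Dlx3 at day 12 were 21.7 and 14.9 normalized CPM in Def6-/- cells and 7.11 and 8.61 in WT cells, a ratio of 2.38 from the summed reads (95% counting interval 1.65 to 3.47) and a log2 fold change of 1.11 (95% interval of the limma fit 0.30 to 1.91). For Dlx5 the levels were 28.5 and 28.2 against 20.5 and 18.05, a log2 fold change of 0.54 (95% interval 0.04 to 1.04). For Msx2 they were 31.7 and 40.7 against 52.1 and 53.3, a log2 fold change of -0.54 (95% interval -1.02 to -0.06).

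Runx2 and Sp7 were above the WT libraries in both Def6-/- libraries at day 12 but did not pass the rule. Runx2 was at 121 and 128 normalized CPM in Def6-/- cells and 91.9 and 105 in WT cells (log2 fold change 0.34, 95% interval -0.38 to 1.06). Sp7 was at 104 and 93.4 against 66.9 and 71.4 (log2 fold change 0.51, 95% interval -0.16 to 1.18). Dlx6 was below without overlap (4.81 and 4.15 against 5.12 and 6.97, log2 fold change -0.35). Msx1 (log2 fold change -0.12, 95% interval -0.71 to 0.47) and Twist1 (0.08, -0.30 to 0.45) overlapped between the genotypes. By libraries that do not overlap, 6 of 8 factors thus separated the genotypes at day 12, 4 above and 2 below, against 32.8% of all genes.

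**Figure D4:**
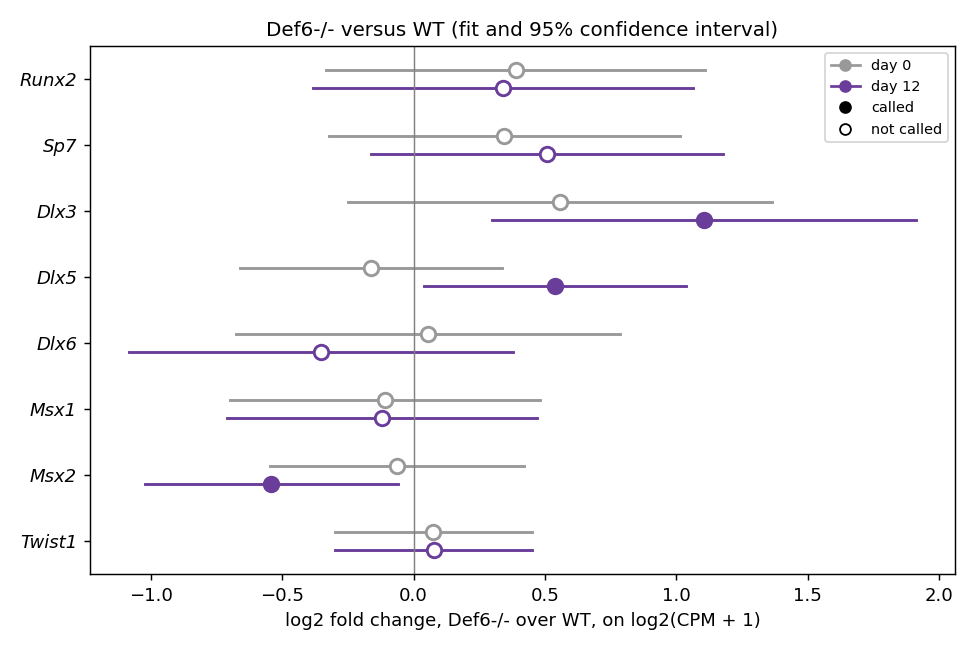
Log2 fold change of Def6-/- over WT on the log2(CPM + 1) scale (horizontal axis) for each factor at day 0 (grey) and day 12 (purple), with lines for the 95% confidence interval of the limma fit and filled points for an unadjusted p under 0.05 and more than 1.2-fold. The filled points are Dlx3 and Dlx5 to the right of 0 and Msx2 to the left at day 12, and no point at day 0 is filled.

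These calls turn on which libraries enter the fit. With only the 4 day 12 libraries, or with either WT day 0 library left out, 5 of 8 factors were called, with Runx2 and Sp7 added at the same or nearly the same fold (4.56% of genes called with the 4 libraries alone, 3.67% without WT day 0 replicate 1, 3.61% without replicate 2). Without WT day 12 replicate 1 or without Def6-/- day 12 replicate 1 none was called, and without WT day 12 replicate 2 or either Def6-/- day 0 library only Dlx3 was. Without Def6-/- day 12 replicate 2 Dlx3 and Msx2 were called. With a pseudocount of 0.1 Dlx5 and Msx2 were called and Dlx3 was not (log2 fold change 1.19). With CPM as deposited only Dlx3 passed, and the share of higher genes among all called was then 70% in place of 54.1%. The directions of Runx2, Sp7, Dlx3, Dlx5, Dlx6 and Msx2 at day 12 were the same with each library left out in turn. For these factors the libraries of the genotypes did not overlap, so that this was largely fixed in advance and adds no evidence.

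A last comparison asked whether the change between the days differed between the genotypes. None of the 8 passed the rule for the interaction, which 1.06% of genes passed, and none passed after adjustment, while edgeR called Dlx5 (1.16% of genes called) and DESeq2 none. Dlx5 came closest, with an interaction of 0.70 on the log2 scale (95% interval -0.0055 to 1.40). The interaction of Dlx3 was 0.55 (-0.59 to 1.69), but its sign turned with a pseudocount of 0.1 (-0.72), edgeR (-0.47) and DESeq2 (-0.70). The interaction was -0.48 for Msx2 (-1.16 to 0.20), -0.41 for Dlx6, 0.16 for Sp7, -0.05 for Runx2, -0.01 for Msx1 and 0.00 for Twist1. Without WT day 0 replicate 1, Msx2 (-0.70), Runx2 (0.51) and Sp7 (0.63) passed (3.53% of genes called), and without WT day 0 replicate 2, Dlx5 (0.80) and Runx2 (-0.59) did (26.7%), with opposite signs for Runx2.

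Genes with which the 8 act were read from lists. Of 26 matrix and mineral genes known as targets of Runx2 or Sp7, 17 rose and 0 fell in WT cells from day 0 to day 12 (limma adjusted p under 0.05, median log2 fold change 1.93 against -0.04 over all genes), and 20 rose and 0 fell in Def6-/- cells (median 2.74 against -0.07). Of all genes, 12.1% rose and 6.61% fell in WT cells, and 11% rose and 6.2% fell in Def6-/- cells. The list was drawn up with results of these data known, so that these counts are no independent evidence. Bglap, Bglap2, Ifitm5, Dmp1, Phex and Sost also passed the filter on low values only through day 12 groups. Any rise of these genes is thus in part fixed by the filter. Ibsp, which encodes bone sialoprotein, rose from 5.46 ± 6.70 to 944 ± 435 normalized CPM in WT cells (SD over 2 libraries) and from 1.30 to 1986 in Def6-/- cells, with log2 fold changes of 7.67 and 9.73. Dmp1, a matrix gene of osteocytes, rose by 5.87 and 5.90 on the log2 scale. Smpd3, a sphingomyelinase needed for mineral deposition, rose by 4.04 and 4.86.

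At day 12, 7 of the 26 targets were higher in Def6-/- cells and 0 lower by the unadjusted rule, 0 passed adjustment, and the median was 0.46 against -0.02 over all genes. By the same rule 0.753% of all genes were higher and 0.64% lower. The 7 were Bglap (16.1 ± 3.36 against 6.82 ± 0.793 normalized CPM, SD, n = 2), Bglap2 (17.7 ± 7.36 against 4.82 ± 0.432), Cadm1 (45.1 ± 13.9 against 21.9 ± 2.04), Ifitm5 (20.2 ± 3.66 against 11.1 ± 1.201), Phospho1 (228 ± 40.3 against 149 ± 3.43), Smpd3 (138 ± 52.6 against 71.3 ± 4.69) and Sost (5.30 ± 0.448 against 0.285 ± 0.402). Bglap and Bglap2, which encode osteocalcin, are near-identical copies between which the counting could have split reads. Phospho1 is a phosphatase of matrix vesicles, and Sost encodes the Wnt antagonist sclerostin of osteocytes. Sost was at 0 normalized CPM in both day 0 groups and near 0 in WT cells at day 12. It passed the filter on low values only through Def6-/- cells at day 12, so that its difference is in part fixed by the filter. Differences of the 26 ranged from -0.33 to 2.33, and 23 of them were positive. Because the list was drawn up with results of these data known, this count is no independent evidence of the direction.

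Partners and repressors of Runx2 were called at shares to be read against the 18.7% of all genes called between the days in WT cells and the 17.2% in Def6-/- cells. Among 24 tested partners and activators of Runx2, 2 rose and 3 fell in WT cells between the days, and 2 rose and 3 fell in Def6-/- cells, which is near the share of all genes. Bmp2, a ligand that induces Runx2 and Dlx5, rose from 2.25 ± 0.414 to 23.5 ± 10.6 normalized CPM in WT cells (SD over 2 libraries, log2 fold change 2.85) and by 2.60 on the log2 scale in Def6-/- cells. Maf rose by 1.41 and 1.03. Tead4 fell by 1.59 and 2.51, and Ets1 fell by 0.97 and 0.91, while Atf4, which drives late osteoblast genes, fell by 1.23 in WT cells and did not pass the test in Def6-/- cells (-0.90). Of 28 tested repressors of Runx2, 6 rose and 1 fell in WT cells and 5 rose and 4 fell in Def6-/- cells. Zfp423 and Tle2 rose by 1.98 and 1.87 in WT cells and by 1.64 and 1.57 in Def6-/- cells, and the Notch target Hes1 fell by 1.57 in WT cells (-1.18 in Def6-/- cells, not called). No gene of either list differed between the genotypes by the rule at day 0 or day 12.

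Other genes that pattern the skull or belong to the same families were called at no more than the shares of all genes in either direction (18.7% and 17.2%). All of their calls were falls, however. Of all genes, 6.61% fell and 12.1% rose in WT cells, and 6.2% fell and 11% rose in Def6-/- cells. Of 26 tested skull factors, 0 rose and 3 fell in WT cells, and 0 rose and 4 fell in Def6-/- cells. The 3 in WT cells were Bcl11b (log2 fold change -1.54, from 49.4 ± 21.7 to 15.5 ± 0.154 normalized CPM, SD, n = 2), Prrx2 (-0.99) and Zic2 (-0.93), and in Def6-/- cells they fell by 1.48, 0.98 and 0.90. Of 12 relatives of the Dlx, Msx, Runx, Sp and Twist genes, 6 were tested, and only Dlx2 passed, falling by 1.61 in WT cells and 2.09 in Def6-/- cells. None of these genes differed between the genotypes by the rule at either day.

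Over the 8 libraries, the genes whose log2 levels ran closest to each factor were found by Pearson's r among 12347 genes. For Dlx3 they were Bglap (r = 0.990), Sult5a1 (0.989) and Phospho1 (0.988), and for Msx2 they were Prr32 (0.996), Mllt11 (0.996) and Ctps (0.995), all of which split by day as these factors do. Dlx5 ran closest to Sost (0.922), Ptger4 (0.885), which encodes a prostaglandin receptor, and Mks1 (0.881). Sost was at 0 normalized CPM in both day 0 groups, 0.285 in WT cells at day 12 and 5.30 in Def6-/- cells at day 12. Its r thus mainly sets Def6-/- cells at day 12 against the other groups. Runx2 ran closest to Wnt5a (0.979), Scai (0.976) and Efna2 (0.974), and Sp7 to Arl5b (0.966), Gigyf2 (0.965) and Natd1 (0.958). Dlx6 ran closest to Gcc2 (0.926), Vrk1 (0.922) and 9430015G10Rik (0.918), Msx1 to Nit1 (0.951), Lrrc57 (0.940) and Bcl2l1 (0.940), and Twist1 to Afmid (0.938), Nipsnap1 (0.932) and Pigb (0.926). These values describe 8 libraries in 4 groups and are the highest of many, so that no test was made. Among the 8 themselves, Dlx3 and Msx2 ran in opposite directions (r = -0.98), Runx2 and Sp7 together (0.84), and the neighbors Dlx5 and Dlx6 in opposite directions (-0.79). WT day 0 replicate 1, the library that stood apart, was the lowest for both Runx2 (50.6 normalized CPM) and Sp7 (42.4). The r of this pair, and of the genes closest to each of them, may thus rest largely on that library, and r without it was not computed.

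Markers of other cell types moved with the days. The summed level of 17 macrophage markers (without Ptprc) was 217 to 447 normalized CPM at day 0 and 3236 to 6483 at day 12, and 15 of these 17 rose in each genotype. Of the 17, Cd52 passed the filter on low values only through the day 12 groups. Of all genes, 12.1% rose and 6.61% fell in WT cells between the days, and 11% rose and 6.2% fell in Def6-/- cells. Ptprc was left out because 49 deposited values were not whole numbers of reads, and all 49 belonged to 9 genes of macrophages and osteoclasts (Acp5, Adgre1, Cd14, Csf1r, Ctsk, Fcgr3, Itgam, Itgb3 and Ptprc). They occurred in all 8 libraries, at 0.233 to 7.94 deposited CPM. How these values were made is not given in the sources used here, so that the levels of these 9 genes were not read as measures of macrophages or osteoclasts. Adipocyte markers summed to 51.2 to 70.6 at day 0, to 426 to 465 in WT cells at day 12 and to 537 to 563 in Def6-/- cells at day 12. At day 12, 4 of 7 tested were higher in Def6-/- than in WT cells by the unadjusted rule (0.753% of all genes were). Adipoq had 18 and 30 reads in Def6-/- cells and 8 and 6 in WT cells at day 12, and Cfd had 8 and 15 against 2 and 1. Both passed the filter on low values only through Def6-/- cells at day 12, so that any difference of theirs is in part fixed by the filter. Chondrocyte markers summed to 2071 to 3974 at day 0 and 1294 to 1862 at day 12, but most of those called rose. Of 7 tested, 3 rose and 1 fell in WT cells and 4 rose and 2 fell in Def6-/- cells, with median log2 fold changes of 0.98 and 0.94. The collagen gene Col2a1 fell by 1.54 and 1.94 on the log2 scale, while Comp rose by 3.90 and 4.05 and Col9a2 by 2.99 and 3.20, and Col9a3 was lower in Def6-/- than in WT cells at day 12 by the unadjusted rule (-0.64). These 4 genes were chosen after their values were seen. Muscle markers summed to at most 14.6 and endothelial markers to at most 22.8, and Myod1, Myf5 and Emcn had 0 reads in all libraries. In bulk RNA, fewer cells of a type and less RNA per cell cannot be told apart, and the part of these cells in the changes of Dlx3 and Msx2 was not tested. None of the 17 macrophage markers differed between the genotypes at day 12 by the rule, though their summed level was highest in WT replicate 1 (6483), and the range in Def6-/- cells (3526 to 3959) lay within that of WT cells (3236 to 6483).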

How the data were processed

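According to the labels and the methods of the study, poly-A RNA was sequenced, reads were trimmed with fastp and aligned to mm10 with HISAT2, and genes were counted with HTSeq. The deposited CPM values, which the authors made with edgeR, are per 1000000 of all reads, those outside genes included; versions, annotation and strand setting are not given in the sources used here. Whole reads were recovered from the steps of the CPM values for 99.957% of 114821 positive values within 0.02 of a read, and for all values of the 8 factors. The other 49 values, all in 9 macrophage and osteoclast genes, were not whole reads, for which the sources used here give no reason. These genes stayed in the fit across all genes, their reads rounded for the count tests, and entered no summed level. CPM was rescaled to the reads on genes and corrected by TMM. Genes were tested (12348) where the deposited CPM averaged 1 or more in any group, with limma 3.58.1 (lmFit, eBayes with trend) on log2(CPM + 1) in R 4.3.3, with 4 group means over all 8 libraries. A gene was called at a Benjamini-Hochberg adjusted p under 0.05 between days, and at an unadjusted p under 0.05 and more than 1.2-fold, the rule of the study, between genotypes and for the interaction. edgeR 4.0.16 and DESeq2 1.42.0 on recovered reads were alternatives, as were other pseudocounts, filters and scalings, the replicate block and leaving out each library. The depth of 2414856 to 3482837 reads per library limits Dlx3 and Dlx6, which have few reads. The 8 factors and the gene lists were chosen with earlier results of these data known. Genes named from the lists are the 3 largest called rises and falls in WT cells and each called between genotypes, except 1 gene that is not reported here.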

Additional observations from a re-analysis of the deposited data

How the results depend on the processing

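The rise of Dlx3 and the fall of Msx2 between the days kept their direction and their call under each alternative and with each library left out, in both genotypes. With libraries left out, the direction was largely fixed in advance, because the libraries of the days did not overlap for these 2 factors. Dlx3 also passed the filter on low values only through the day 12 groups, so that its call is in part fixed by the filter. The replicate numbers were not taken to pair the libraries, since no source says that they do and the correlations are mixed. The correlation of same-numbered libraries was 0.0893 and 0.152 between the days of WT and Def6-/- cells, 0.325 between the genotypes at day 0 and 0.0373 at day 12. With the replicate block the counts of called factors were 2 and 2 between the days, 0 and 3 between the genotypes at day 0 and day 12, and 0 for the interaction, so that it changed none.

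Between the genotypes at day 0, a pseudocount of 0.1 called 1 factor (Dlx3). At day 12, a fit of the 2 groups alone called 5, CPM as deposited and DESeq2 called 1 (Dlx3), and a pseudocount of 0.1 called 2 (Dlx5 and Msx2) and ended the call of Dlx3. For the interaction, a pseudocount of 0.1, a filter at 2 CPM and edgeR each called 1 (Dlx5). With libraries left out in turn, the counts ranged from 2 to 4 between the days in WT cells, 2 to 5 in Def6-/- cells, 0 to 2 and 0 to 5 between the genotypes at day 0 and day 12, and 0 to 3 for the interaction. Where leaving out a library left 1 in a group, that library was assumed to vary like the others.

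Signs turned only for factors that were not called. Between the days, Twist1 was 0.011 and 0.0088 in WT cells with edgeR and DESeq2, and 0.054 and 0.043 in Def6-/- cells. CPM as deposited gave 0.014 for Msx1 and 0.057 for Msx2 between the genotypes at day 0, and -0.030 for Twist1 in the interaction, which was -0.0036 without TMM factors. The interaction of Runx2 was 0.076 with edgeR and 0.070 with DESeq2, and that of Dlx3 was -0.72 with a pseudocount of 0.1, -0.47 with edgeR and -0.70 with DESeq2. Leaving out libraries gave, between the days in WT cells, -0.092 to 0.94 for Runx2, -0.16 to 0.69 for Sp7, -0.23 to 0.017 for Dlx5, -0.14 to 0.22 for Dlx6 and -0.089 to 0.054 for Twist1, and in Def6-/- cells -0.083 to 0.13 for Twist1. Between the genotypes at day 0 it gave -0.16 to 0.93 for Runx2, -0.11 to 0.80 for Sp7, -0.18 to 0.30 for Dlx6, -0.49 to 0.27 for Msx1 and -0.30 to 0.17 for Msx2, and at day 12 -0.25 to 0.032 for Msx1 and -0.0040 to 0.18 for Twist1. The interaction ranged from -0.59 to 0.51 for Runx2, -0.29 to 0.63 for Sp7, -0.40 to 0.37 for Msx1 and -0.055 to 0.14 for Twist1, and the difference of the Sp7 to Runx2 ratio from -0.19 to 0.064. The exceptions were Runx2 and Sp7, which passed in some of these fits as given with each comparison. The cause was not tested.

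Over all genes, the count called at day 12 between the genotypes was 172 in the fit of all libraries, 551 in that of the 2 groups alone, 450 without a filter and 85 with DESeq2, and at day 0 it was 289, 59, 443 and 212. It was 455 and 547 without WT day 0 replicate 1, and 447 and 4598 without replicate 2. For the interaction it was 131, 335 without a filter and 45 with DESeq2. Between the days the fit of 2 groups alone called 1039 genes in place of 2307 in WT cells and 4109 in place of 2129 in Def6-/- cells.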
